A study of Mus musculus with 3 samples.

Results

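Chemokine ligand and receptor genes were examined for open chromatin in the whole mouse uterus on gestation day 4. Members were protein-coding genes whose symbol is Ccl, Cxcl, Cx3cl, Xcl, Ccr, Cxcr, Cx3cr, Xcr or Ackr followed by a number, 62 of the 21900 protein-coding genes in the RefSeq table. Ccl21c carries no usable chromosome position there, which left 61 genes: 38 ligands and 23 receptors, 4 of the latter atypical. FAIRE-seq, which recovers DNA that formaldehyde did not crosslink to protein, was applied to 3 samples of 1 group, untreated wild-type C57BL/6J females aged 6 to 10 weeks, 4 days into pregnancy. Frozen tissue (100 mg) was fixed for 9 min in 1% formaldehyde and sheared to about 300 bp. The authors' list of 12413 peaks assigns none of them to a sample; values therefore carry no spread over animals, the sequencing depth behind them is not known, and the agreement of the 3 samples could not be examined. No test was made, as genes of 1 list are not replicates, and comparisons are of counts and medians, with the value over all protein-coding genes as the background.

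Chemokines are small secreted proteins that draw leukocytes along a concentration gradient, and their receptors are G protein-coupled receptors on the cells that move. Ligands of the family are named by the spacing of their first cysteines (Ccl, Cxcl, Cx3cl, Xcl) and receptors by the ligands they bind (Ccr, Cxcr, Cx3cr, Xcr), while the atypical receptors (Ackr) bind ligand without the usual G protein signal and clear it from the tissue. In the uterus they guide macrophages, natural killer cells, neutrophils and eosinophils, and after implantation the decidual stroma is known for keeping T cell attracting ligand genes silent. Many ligand genes arose by tandem duplication and lie in clusters.

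Few chemokine genes had a FAIRE peak near them. A peak overlapped the gene or the 10 kb on either side of it in 6 of 61 (9.84%), whereas 57.6% of the 21523 protein-coding genes with a chromosome position did. These were the ligand genes Cxcl12, Cxcl14, Cxcl16, Ccl25 and Ccl27a and the receptor gene Ccr10. Within 1 kb of an annotated end the count was 4 of 61 (6.56%), against 44.5% of all protein-coding genes, and inside the gene it was also 4, against 48.8%; in both counts these were Cxcl12, Cxcl14, Ccl25 and Ccr10. The median distance from a chemokine gene to the nearest peak was 75.1 kb (interquartile range 32.4 to 147 kb), while over all protein-coding genes it was 0.329 kb. Whole uterus mixes epithelium, stroma, muscle, vessels and leukocytes, so fewer cells of a type and less open chromatin per cell cannot be told apart. By family, a nearby peak was found at 3 of 12 Cxcl, 2 of 24 Ccl and 1 of 11 Ccr genes, and at none of the 6 Cxcr and 4 Ackr genes or of Cx3cl1, Cx3cr1, Xcl1 and Xcr1.

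**Figure D1:**
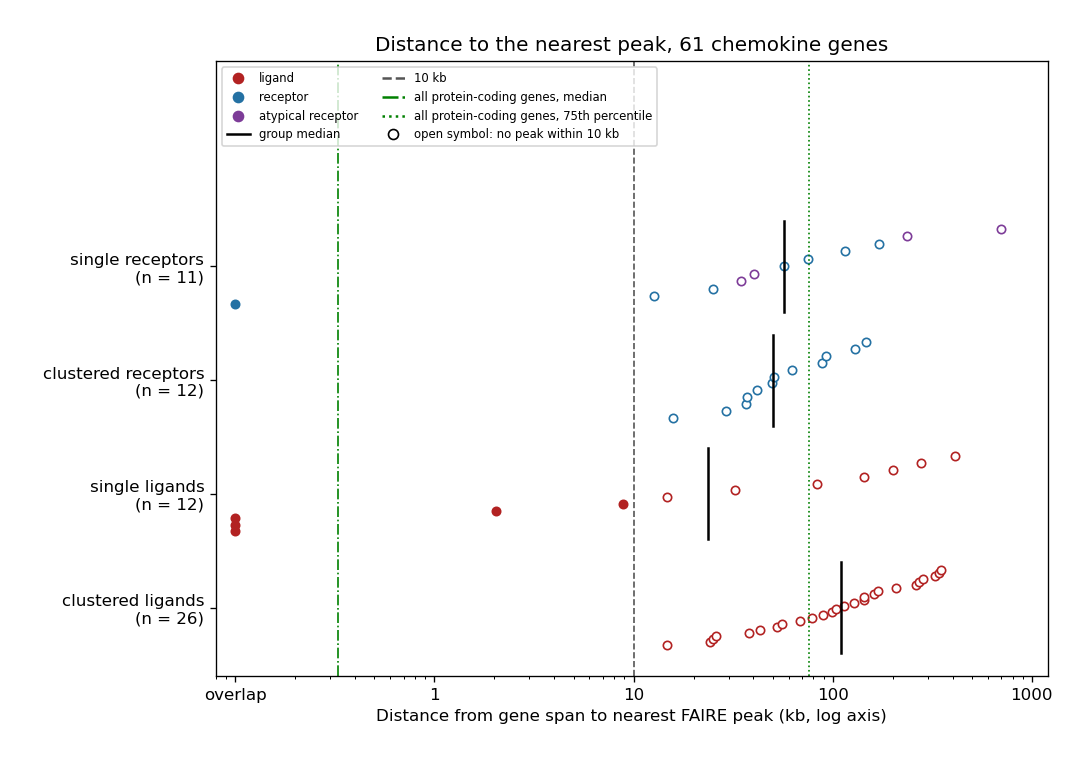
Distance from each of 61 chemokine genes to the nearest FAIRE peak (horizontal axis, kb, log scale, with overlapping peaks drawn at the left), in 4 groups of clustered and single ligand and receptor genes. Filled points have a peak within 10 kb, black bars are group medians, and green lines give the median (0.329 kb) and 75th percentile (75.7 kb) of all protein-coding genes; no clustered gene lies left of the 10 kb line.

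The start-site sequences of the members on which the results turn are given first, from RefSeq (GRCm38.p6). In the first set the bases of each CpG are in capitals. Cxcl12, Cxcl14 and Ccl25 had a peak within 1 kb of a start site, the second start site of Ccl25 had none, and Cxcr4 is shown as a start site with many CpG and no peak. Each line holds the 250 bases before the start, on the strand of the gene. The Cxcl12 and Cxcl14 peaks lay after the start, so their lines hold no base of a peak, while the first Ccl25 line lies within its peak.
Cxcl12 (chr6:117168285-117168534, plus strand): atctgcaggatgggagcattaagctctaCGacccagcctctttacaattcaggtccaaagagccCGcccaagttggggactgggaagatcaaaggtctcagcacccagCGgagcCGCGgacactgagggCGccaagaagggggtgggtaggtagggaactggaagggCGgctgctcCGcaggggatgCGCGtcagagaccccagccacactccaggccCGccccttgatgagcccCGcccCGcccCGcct
Cxcl14 (chr13:56296552-56296801, minus strand): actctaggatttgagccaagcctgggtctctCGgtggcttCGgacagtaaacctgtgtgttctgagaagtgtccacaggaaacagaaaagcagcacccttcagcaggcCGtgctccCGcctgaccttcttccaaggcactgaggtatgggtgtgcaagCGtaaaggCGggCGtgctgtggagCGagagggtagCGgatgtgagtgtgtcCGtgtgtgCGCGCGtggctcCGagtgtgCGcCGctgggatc
Ccl25, first start (chr8:4324960-4325209, plus strand): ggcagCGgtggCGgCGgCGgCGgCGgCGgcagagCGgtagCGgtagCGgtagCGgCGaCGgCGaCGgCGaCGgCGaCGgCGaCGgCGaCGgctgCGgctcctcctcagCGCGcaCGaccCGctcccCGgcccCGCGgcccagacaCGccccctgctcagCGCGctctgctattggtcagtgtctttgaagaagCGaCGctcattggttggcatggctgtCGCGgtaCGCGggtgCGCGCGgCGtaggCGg
Ccl25, second start (chr8:4349338-4349587, plus strand): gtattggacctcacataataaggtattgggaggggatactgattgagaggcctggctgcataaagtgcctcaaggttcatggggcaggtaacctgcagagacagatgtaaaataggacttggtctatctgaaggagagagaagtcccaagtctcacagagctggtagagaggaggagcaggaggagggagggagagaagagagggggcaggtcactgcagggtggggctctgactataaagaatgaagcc
Cxcr4 (chr1:128592300-128592549, minus strand): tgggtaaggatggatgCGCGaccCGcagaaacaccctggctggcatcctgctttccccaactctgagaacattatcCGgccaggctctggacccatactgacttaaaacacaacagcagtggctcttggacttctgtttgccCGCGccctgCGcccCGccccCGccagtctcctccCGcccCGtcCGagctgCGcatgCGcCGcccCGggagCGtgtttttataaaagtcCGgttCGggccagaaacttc

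Cxcl12 encodes the ligand of Cxcr4 and Ackr3, which retains stem and progenitor cells and attracts lymphocytes. Its single peak (chromosome 6, 117168541 to 117168860, 320 bp, GRCm38.p5) had a pileup of 51 and a fold enrichment over local background, the authors' score of each peak, of 6.16. The summit lay inside the gene, 145 bp after the start site whose upstream bases are shown above, and the next protein-coding gene end was 451698 bp away, at Tmem72. No other protein-coding gene lay within 10 kb of it.

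Cxcl14, a ligand made by epithelia and stroma in many organs, had 1 peak of almost the same strength. It was 392 bp wide (chromosome 13, 56296044 to 56296435), with a pileup of 48 and a fold enrichment of 6.10. Its summit lay inside the gene, 326 bp after the start site, and the nearest end of another protein-coding gene was that of Neurog1, 44045 bp away. Over all peaks the median fold enrichment was 5.80, and the Cxcl12 and Cxcl14 peaks stood at percentiles 55.5 and 54.5 of the list. They were the only peaks within 10 kb of a chemokine gene for which that gene held the nearest protein-coding end: by this count 2 of 61 chemokine genes (3.28%) had a peak of their own, against 45.8% of all protein-coding genes.

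Ccl25, a ligand of Ccr9 that guides T cells to thymus and gut, had the strongest peak of the set, at 9.15-fold (chromosome 8, 4324746 to 4325366, 621 bp, pileup 114, percentile 85.5). That summit lay 55 bp before the first start site of Ccl25 and also 55 bp from a start site of Elavl1, the gene of an RNA-binding protein that most cells express. It was the only peak near a chemokine gene whose −log10 q (67.0) was above the median of the list (22.7); Cxcl12 stood at 22.5 and Cxcl14 at 21.02. The nearest annotated end was that of Elavl1, 15 bp from the summit, against 50 bp for Ccl25. The second start site of Ccl25 had no peak within 10 kb, and 1 open region thus lay at the starts of both genes.

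**Figure D2:**
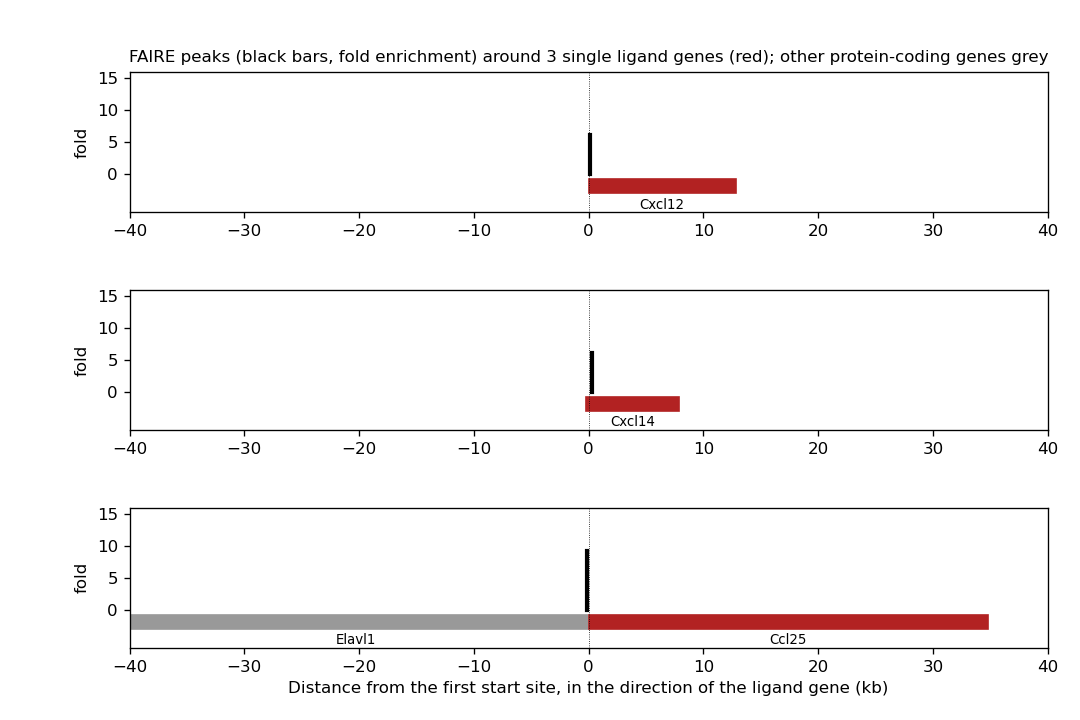
FAIRE peaks (black bars, height is fold enrichment) and protein-coding genes (boxes) within 40 kb of the first start site of Cxcl12, Cxcl14 and Ccl25, drawn in the direction of the ligand gene (horizontal axis, kb). The Cxcl12 peak (6.16-fold) and the Cxcl14 peak (6.10-fold) lie just inside genes that stand alone, while the Ccl25 peak (9.15-fold) lies where Ccl25 meets Elavl1.

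At the other members the peaks lay closer to other genes. Cxcl16, a membrane-bound ligand of Cxcr6 that also acts as a scavenger receptor, had a peak 2.03 kb outside the gene (chromosome 11, 70451824 to 70452360, 5.50-fold), whose summit was 298 bp from a start site of Med11, a Mediator subunit gene. Ccl27a, a skin ligand of Ccr10, had one 8.85 kb away (chromosome 4, 41760351 to 41760622, 4.67-fold), with its summit 64 bp from a start site of Il11ra1, the interleukin 11 receptor gene that decidualization requires. Both peaks were counted for the chemokine gene only because it lies within 10 kb.

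Ccr10, a receptor for Ccl27a and Ccl28, was the only receptor gene with a nearby peak, and it had 3. The first lay inside the gene (chromosome 11, 101173646 to 101174116, 3.79-fold), with its summit 570 bp from an end of Cntnap1 and 1049 bp from an end of Ccr10. Another (101170298 to 101170670, 4.58-fold) had its summit 855 bp from a start site of Plekhh3, and the third (101164044 to 101164428, 4.30-fold) lay 1511 bp from an end of the same gene. By fold enrichment all 3 were weak, between percentiles 12.3 and 29.1 of the list. Over all 8 peaks near chemokine genes the median fold enrichment was 5.09 (range 3.79 to 9.15) and the median width 388.5 bp, against 5.80 and 427 bp over all peaks, and their local background pileup was at most 12.2 (the median over all peaks was 8.59).

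Ligands and receptors were compared next. A nearby peak was found at 5 of 38 ligand genes (13.2%) and at 1 of 23 receptor genes (4.35%), none of them among the 4 atypical receptors. The distances ran the other way: the median to the nearest peak was 94.3 kb for ligands and 50.8 kb for receptors. Both counts were below the 57.6% of all protein-coding genes, and the order of ligands and receptors depended on the measure. The median span was 4004.5 bp for ligands and 9715 bp for receptors, and its part in these values was not tested. Counting only peaks whose nearest protein-coding end was the member's own, the values were 2 of 38 and 0 of 23. With 50 kb on each side in place of 10 kb, the order of the shares turned, to 13 of 38 ligands (34.2%) and 11 of 23 receptors (47.8%), against 70.8% of all protein-coding genes.

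Clustered and single genes were compared by the same counts, a gene being clustered when another chemokine gene lay within 100 kb. None of the 38 clustered genes had a peak within 10 kb, whereas 6 of 23 single genes (26.1%) did. Single ligands stood at 5 of 12 and single receptors at 1 of 11, while clustered ligands and clustered receptors stood at 0 of 26 and 0 of 12. The median distance to the nearest peak was 88.8 kb for clustered and 40.3 kb for single genes. Single genes were also longer, with a median span of 10879 bp against 4932.5 bp for clustered genes, and the part of span in the difference was not tested. Counting only peaks whose nearest protein-coding end was the member's own, 2 of 23 single genes (8.70%) had one, against 45.8% of all protein-coding genes. Role and position overlap here, since 26 of 38 ligands but 12 of 23 receptors were clustered, so the ligand count rests on its single genes.

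The 38 clustered genes formed 11 clusters, 7 of them with at least 3 genes. Together these stretches, from the first to the last member, covered 1.01 Mb and held no peak. Besides the members, 5 protein-coding genes overlapped them. At the density of the whole list, 4.84 peaks per Mb, a length of this size would hold 4.87 peaks. In the 7 larger clusters no peak was found with 10 kb added on each side either.

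Ccl2, Ccl7, Ccl11, Ccl12, Ccl8 and Ccl1 on chromosome 11, which include the main monocyte attracting ligands and the eosinophil ligand Ccl11, lay in the longest gap between peaks of the 11 clusters. The flanking peaks were 882 kb before and 209 kb after the cluster, a gap of 1235 kb that was longer than 96.7% of the gaps between neighbouring peaks of the list. Within the cluster the distance to the nearest peak fell from 351 kb at Ccl2 to 209 kb at Ccl1. The nearer flanking peak was a weak one at Tmem132e (3.87-fold). The median gap between neighbouring peaks of the list was 61.8 kb. Over the 11 clusters, the gap was longer than 59.3% (Ccl26 and Ccl24) to 96.7% of the gaps of the list. This share counts gaps and not bases, and a gap that holds a whole cluster is at least as long as the cluster.

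Ccl5, Ccl9, Ccl6, Ccl3 and Ccl4, on the same chromosome, encode ligands that attract monocytes and T cells. Their cluster lay in a gap of 280 kb, between an 11.6-fold peak 52.5 kb away at the end of Taf15 and a 4.50-fold peak 89.0 kb away at Heatr6. Its members lay from 52.5 kb (Ccl5) to 115 kb (Ccl6) from the nearest peak. On chromosome 5 the neutrophil attracting Cxcl5, Cxcl3, Cxcl15, Cxcl1 and Cxcl2 lay in a gap of 564 kb that ended 25.1 kb beyond Cxcl2, at a 14.5-fold peak by Mthfd2l. Cxcl2 and Cxcl1 lay 25.1 kb and 37.9 kb from that peak, and Cxcl15, Cxcl3 and Cxcl5 128 kb, 143 kb and 169 kb from it. Pf4 and Ppbp, the platelet CXC ligands inside that stretch whose symbols lie outside the naming rule, had their nearest peak 158 kb and 161 kb away.

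The remaining ligand clusters were flanked by peaks of ordinary genes. Cxcl9 and Cxcl10, the interferon-induced ligands of Cxcr3, had their nearest peak at 43.0 kb and 68.3 kb, at Naaa. Ccl22, Cx3cl1 and Ccl17 on chromosome 8 lay between a 9.19-fold peak at Arl2bp and an 11.3-fold peak at Coq9, 171 kb apart. Cx3cl1 encodes fractalkine, a membrane-bound ligand, and lay 55.7 kb from the nearest peak, while Ccl17 and Ccl22, ligands of Ccr4, lay 26.0 kb and 78.7 kb away. Ccl26 and Ccl24, eosinophil ligands, were the clustered ligands nearest to a peak, 14.7 kb and 24.2 kb from one at Hip1. Ccl27b, Ccl19 and Ccl21a on chromosome 4 lay in a gap of 1156 kb, at 261 kb, 161 kb and 143 kb from the nearest peak. Ccl19 and Ccl21a guide T cells and dendritic cells to lymph nodes through Ccr7. This region holds near-identical copies of Ccl19, Ccl21 and Ccl27, where reads that match several copies may not have been placed, and the handling of such reads is not stated.

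Receptor clusters looked alike. Ccr9, Cxcr6 and Xcr1 on chromosome 9, receptors of T cells and dendritic cells, lay in a gap of 207 kb, and the cluster with Ccr1, Ccr1l1, Ccr3 and Ccr2, which serve monocytes and eosinophils, in one of 331 kb. In the first, the distances were 49.5 kb, 88.7 kb and 62.6 kb in that order; in the second they were 36.5 kb at Ccr1, 50.8 kb at Ccr1l1, 92.2 kb at Ccr3 and 147 kb at Ccr2. Cx3cr1, the fractalkine receptor of macrophages, and Ccr8 lay between an 11.1-fold peak near Xirp1 and a 7.60-fold peak at Slc25a38, 99.2 kb apart, with Cx3cr1 37.3 kb and Ccr8 15.7 kb from the nearer one. Cxcr2 and Cxcr1, the neutrophil receptors, lay between peaks at Tns1 (6.14-fold) and Arpc2 (13.6-fold), 112 kb apart.

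**Figure D3:**
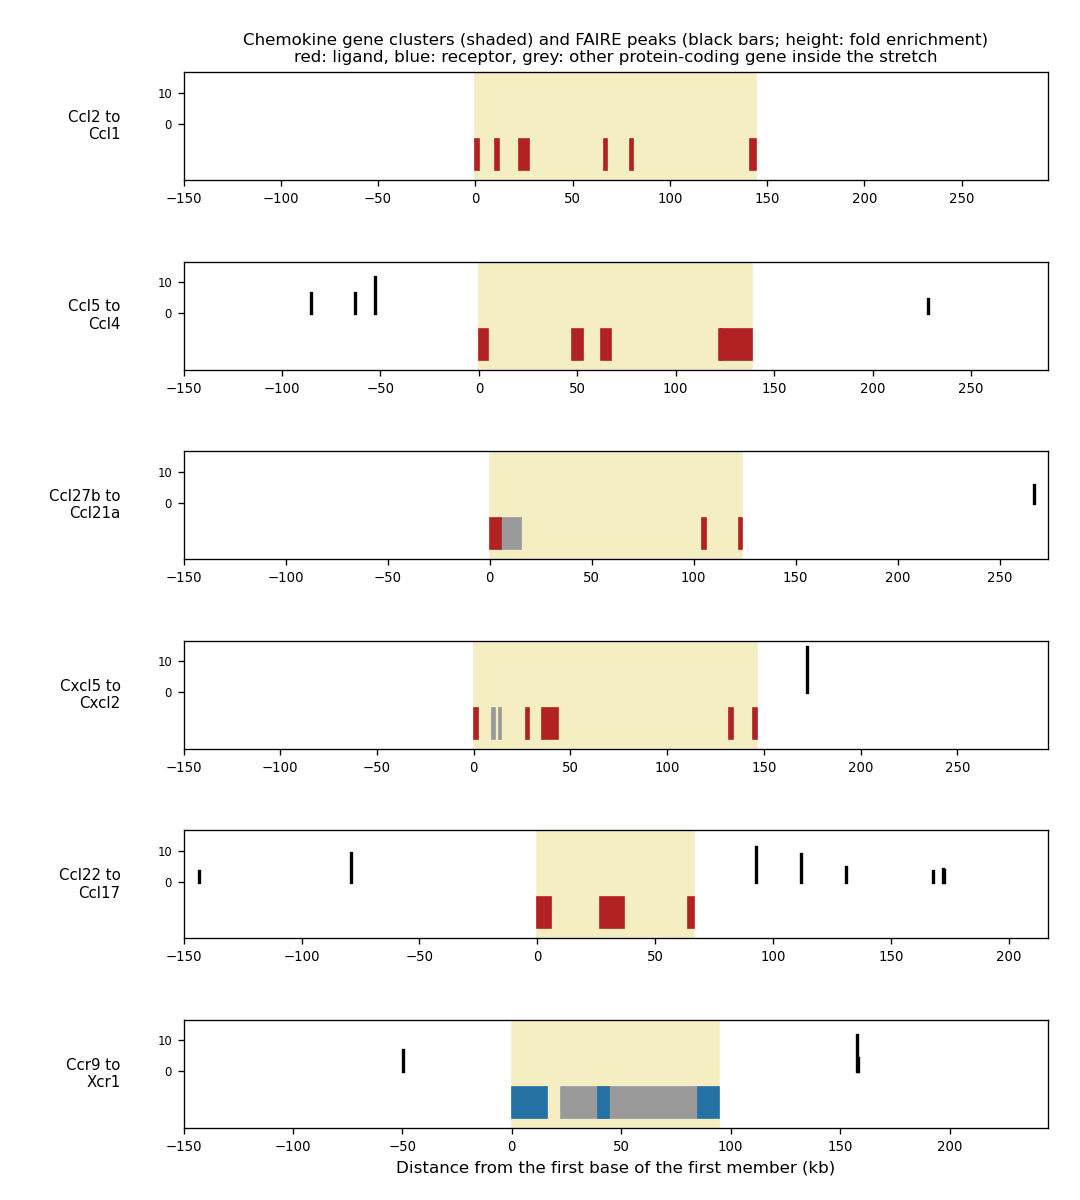
Shown are 6 of the 7 chemokine gene clusters of at least 3 genes (shaded stretches; red ligands, blue receptors, grey other protein-coding genes) with FAIRE peaks as black bars whose height is fold enrichment. The horizontal axis is the distance in kb from the first base of the first member, with 150 kb on each side; all bars lie outside the shaded stretches.

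Among the 23 single genes, 17 had no peak within 10 kb. The ligands were Ccl20, Xcl1, Ccl28, Ccl21b, Ccl21d, Cxcl13 and Cxcl17, with nearest peaks from 14.8 kb (Ccl28) to 412 kb (Ccl21b) away. Ccl21b and Ccl21d lie in the chromosome 4 region of near-identical copies, where reads may not have been placed. Ccl20, the ligand of Ccr6, lay 277 kb from a peak, Cxcl13, the B cell ligand of Cxcr5, 200.1 kb, and Cxcl17, a mucosal ligand, 83.0 kb. The receptors were Cxcr4, Ccr7, Ccr6, Cxcr5, Ccr4 and Cxcr3, from 12.6 kb (Cxcr5) to 171 kb (Cxcr4). Ccr6 lay 24.98 kb, Ccr4 57.0 kb, Ccr7, the lymph node homing receptor, 75.1 kb, and Cxcr3, the receptor of Cxcl9 and Cxcl10, 115 kb from a peak. The atypical receptors were Ackr1, Ackr2, Ackr3 and Ackr4, from 34.5 kb (Ackr4) to 699 kb (Ackr1). For the Cxcl12 axis, then, the ligand gene had a peak at its start, and its receptor genes Cxcr4 and Ackr3 had their nearest peaks 171 kb and 235 kb away.

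Other genes in the same neighbourhoods often had peaks. Of 150 protein-coding genes within 100 kb of a chemokine gene, 103 (68.7%) had a peak within 10 kb. Around clustered chemokine genes this was 36 of 51 (70.6%), and around single ones 67 of 99 (67.7%). Both shares were above the 57.6% of all protein-coding genes; genes in crowded stretches can share 1 peak.

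Chemokine genes are short, and short genes have fewer peaks. The median span was 5278 bp, against 17374 bp over all protein-coding genes. Within classes of span the chemokine genes still had fewer: 2 of 28 (7.14%) up to 5 kb, against 32.7% of other genes of that span, 3 of 24 (12.5%) from 5 to 15 kb, against 58%, and 1 of 9 (11.1%) above 15 kb, against 67.8%. Among genes with no other protein-coding gene in the 10 kb window, the values were 2 of 28 (7.14%) and 39.7%.

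**Figure D4:**
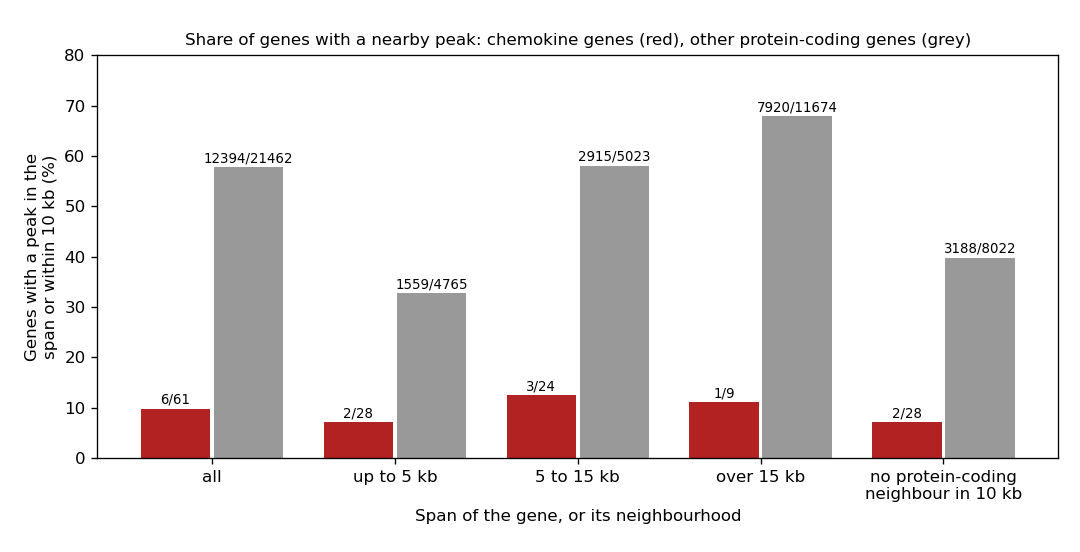
Share of genes with a peak in the span or 10 kb flanks (vertical axis, percent) for chemokine genes (red) and other protein-coding genes (grey), over all genes, by span of the gene, and for genes without a protein-coding neighbour; the counts stand above the bars. Red bars run from 7.14% to 12.5% and grey bars from 32.7% to 67.8%.

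The promoter sequences differed from those of most genes in CpG content. RefSeq windows of 300 bases (250 before to 50 after the start) matched 47 of the 62 genes, with 54 windows; those without one include Ccl2, Ccl4, Ccl5, Ccl7, Ccl11, Ccl21c, Ccl24, Ccl26, Cxcl5, Cxcl16, Cxcl17, Ccr7, Ccr10 and Cxcr5. The median number of CpG was 4 in chemokine windows and 13 in all 21263 protein-coding windows. Over all windows, the share that overlapped a peak was 0.0781% with 0 to 2 CpG, 0.494% with 3 to 5, 5.39% with 6 to 9, 38.5% with 10 to 19 and 81.5% with 20 or more. Of the chemokine windows, 39 had fewer than 10 CpG and none of these overlapped a peak. Windows with 10 or more CpG made up 6 of 32 (18.8%) for clustered and 9 of 22 (40.9%) for single chemokine genes, against 56.8% of all windows.

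Low CpG content therefore went with the absence of peaks, and its part in the low counts was not tested. Over all CpG classes 2 of 54 chemokine windows (3.70%) overlapped a peak, against 38% of all protein-coding windows. In the CpG-rich classes the chemokine windows were few: 0 of 10 overlapped a peak with 10 to 19 CpG, and 2 of 5 with 20 or more. The 5 were those of Cxcl12 (20 CpG), the first start of Ccl25 (52), Cxcl14 (22), Cxcr4 (20) and Ccl21b (45). Those of Cxcl12 and Ccl25 overlapped a peak, and the Cxcl14 peak began just beyond its window. Ccl21b lies in the chromosome 4 region of near-identical copies, where reads may not have been placed. For Cxcl12 and Cxcr4, the 250 bases printed above are only part of the window and hold 14 and 19 CpG. Over the whole window Cxcr4 had as many CpG as Cxcl12, and Cxcr4 had no peak within 10 kb. The second start of Ccl25, with 1 CpG in its window and none in the 250 bases printed, had none either.

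**Figure D5:**
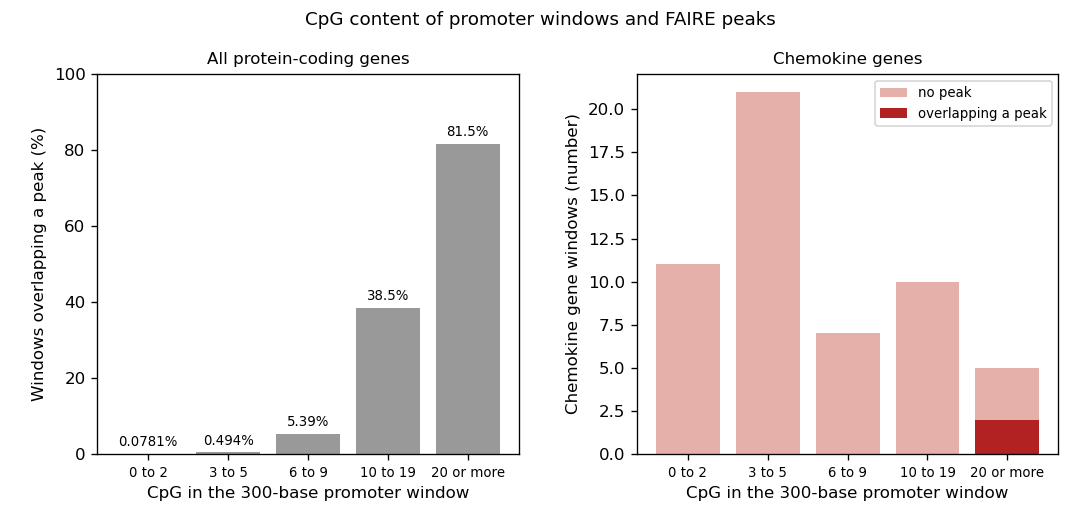
Left, share of all 21263 protein-coding promoter windows that overlap a FAIRE peak (vertical axis, percent) by number of CpG in the 300-base window, rising from 0.0781% to 81.5%. Right, the number of chemokine gene windows in each CpG class, with the 2 that overlap a peak in dark red, both in the class with 20 or more CpG.

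Motifs of inducible promoters were searched in the same windows. The kappa B type motif, like the others searched on both strands, was found in 6 of 54 chemokine windows (11.1%), against 1.6% of all protein-coding windows, and 0 of the 6 overlapped a peak, against 33.4% of all windows with this motif (114 of 341). They belonged to Ccl20, Cxcl1, Cxcl2, Cxcl3, Ccl9 and Ccr3, and held from 1 to 11 CpG. TATAAA was found in 15 windows (27.8%, against 12.6%) and TGANTCA, the AP-1 type, in 10 (18.5%, against 6.99%). GGGCGG, the GC box, was rarer in chemokine windows, with 11 (20.4%, against 46.2%). The interferon response type motif stood at 3 (5.56%, against 3.35%), TTCNNNGAA, the Stat type, at 4 (7.41%, against 7.69%), and the steroid receptor type AGAACA at 9 (16.7%, against 16.2%). A match is only a run of letters, and no binding was measured.

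The next lines show the motifs in peak-free promoters, with the motif in capitals: the 120 bases before the start of the neutrophil ligand genes Cxcl1 and Cxcl2, each with 2 matches of the kappa B type, and the 250 bases before the start of Cxcl10, with 1 match of the interferon response type. No capital stretch overlaps a match of another motif searched.
Cxcl1 (chr5:90891125-90891244, plus strand): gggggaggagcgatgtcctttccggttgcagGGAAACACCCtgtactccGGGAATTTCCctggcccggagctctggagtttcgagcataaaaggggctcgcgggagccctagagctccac
Cxcl2 (chr5:90903779-90903898, plus strand): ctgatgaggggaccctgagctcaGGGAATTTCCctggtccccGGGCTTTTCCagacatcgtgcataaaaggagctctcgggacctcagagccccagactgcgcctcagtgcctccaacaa
Cxcl10 (chr5:92348890-92349139, minus strand): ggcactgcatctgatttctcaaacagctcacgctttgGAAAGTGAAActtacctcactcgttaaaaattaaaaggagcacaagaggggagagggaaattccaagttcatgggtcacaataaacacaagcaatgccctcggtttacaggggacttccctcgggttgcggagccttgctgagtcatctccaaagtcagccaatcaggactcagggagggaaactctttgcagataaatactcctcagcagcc
In Cxcl1 the matches began 89 bases (on the opposite strand) and 71 bases before the start, in Cxcl2 97 and 78 bases before it, and in Cxcl10 213 bases before it. The nearest peaks to these genes were 37.9 kb, 25.1 kb and 68.3 kb away.

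Genes that act before and after chemokines were counted in the same way, against 57.6% of all protein-coding genes within 10 kb and 44.5% at a gene end. Of 24 signalling genes below the receptors, 18 (75%) had a peak within 10 kb and 15 (62.5%) at a gene end, led by Arrb2, a beta-arrestin gene (13.7-fold), Rgs2, a regulator of G protein signalling (13.7), Jak2 (11.2), Grk3, a receptor kinase gene (10.3), Rac1 (10.1) and Elmo1 (8.19). The 6 with none within 10 kb were Arrb1, Gng2, Pik3cg, Ptk2b, Rac2 and Rgs1. Of 12 inducers, 10 (83.3%) had one within 10 kb and 6 (50%), a share near that of all genes, had it at a gene end, among them Rela (8.13-fold), Irf1 (7.85), Nfkbia (7.25), Nfkb1 (5.06) and Relb (3.84), while of the cytokine genes Tnf had a peak 3.37 kb away (4.71-fold) and Ifng and Il1b had none within 10 kb. Of 9 genes that cleave, shed or hold ligands, 8 (88.9%) had one within 10 kb and 6 (66.7%) at a gene end, with Adam17, a sheddase gene, at 13.0-fold, Ext1 at 9.48, Adam10 at 8.12, Sdc1 at 7.28, Ndst1 at 6.39 and Sdc4 at 5.58, and Dpp4, which trims ligands, had none within 10 kb. The Polycomb genes Eed (13.3-fold), Suz12 (13.2) and Ezh2 (6.27) all had gene-end peaks. Of 6 related chemokine-type genes outside the naming rule, only Gpr1 had a peak nearby (3.50-fold, 5.12 kb away).

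Markers of leukocytes and endothelium had no nearby peaks. None of 10 leukocyte marker genes (among them Ptprc, Cd3e, Ncr1, Klrb1c, Itgam, Itgax, Adgre1, Csf1r, Ly6g) had a peak within 10 kb, where 57.6% of all protein-coding genes had one, and neither did any of 4 endothelial markers (Pecam1, Cdh5, Kdr, Tek). Among leukocyte markers, Csf1r lay 45.6 kb and Ptprc 443 kb from a peak, and the endothelial markers lay from 26.0 kb to 161 kb away. Most receptor genes are leukocyte genes; the part of leukocyte number in their result was not tested. Uterine genes had a peak within 10 kb in 8 of 10 (80%) and at a gene end in 5 (50%, against 44.5% of all protein-coding genes). The gene-end peaks were at Msx1 (7.15-fold), Emx2 (5.92), Wnt7a (4.75), Hand2 (4.29) and Hoxa11 (3.65). The progesterone receptor gene Pgr overlapped a peak (5.05-fold) but had none at a gene end, and Esr1 and Foxa2 had none within 10 kb. Smooth muscle markers had a peak within 10 kb in 3 of 5 (60%) and at a gene end in 1 of 5 (20%). The counts for smooth muscle were thus near or below those of all genes.

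Other gene families were counted in the same way, against 57.6% of all protein-coding genes. Interleukin ligand and receptor genes, matched by symbol, had a peak within 10 kb in 22 of 80 (27.5%), with 6 of 37 clustered (16.2%) and 16 of 43 single genes (37.2%). Keratin genes, all of them in clusters, stood at 5 of 53 (9.43%), a share close to that of chemokine genes. Hox genes, also short and clustered, stood at 31 of 39 (79.5%). The differences between families were not tested.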

How the data were processed

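A single deposited table of 12413 FAIRE-seq peaks was analysed; it names none of the 3 samples, which form 1 group. Tools named in the submitters' processing notes are MACS2, HOMER, Bowtie2 and FastQC, with the build GRCm38.p5; threshold, control and pooling of the calls are not stated there. Values used are, per the file headers, the deposited pileup (a coverage signal), fold enrichment (a ratio to local background) and −log10 q-value of each peak. Local background was computed as (pileup + 1) / fold − 1.

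Genes and promoter windows came from RefSeq tables of GRCm38.p6, a patch release that keeps chromosome positions. Genes that start below 3 Mb or off chromosomes 1 to 19 and X (377 protein-coding genes) were left out as carrying no usable position. Exons and introns were not separated. A peak counted when it overlapped the span plus 10 kb on each side, or 1 kb around either end. Every peak in a window counted for each gene. Counting was tested on simulated peaks. Members are named, except for a result that is not reported here; from each related list at most 6 are given by gene-end fold, and further ones were chosen after their values were seen. Members, lists and motifs were chosen with earlier results of these data known. Python 3.11.15, pandas 2.3.3 and numpy 2.4.6 were used. The design text speaks of RNA from 4 mice, which was not analysed here.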

Additional observations from a re-analysis of the deposited data

How the results depend on the processing

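The list names no sample, so no mouse could be left out and no test was made. No paired analysis was possible because there is 1 group. Main counts were 6 of 61 genes, 5 ligands, 1 receptor, 0 clustered and 6 single genes with a peak within 10 kb. With 50 kb on each side they became 24 genes, 13 ligands, 11 receptors, 12 clustered and 12 single genes, against 70.8% of all protein-coding genes, and the order of ligands (34.2%) and receptors (47.8%) turned. Peaks above the median fold gave 3 genes, 3 ligands, 0 receptors and 3 single genes (against 36.2%), and peaks above the median −log10 q gave 1 gene, 1 ligand, 0 receptors and 1 single gene (against 35.9%), with 1 gene at a gene end (against 26.0%). Only peaks nearest to a chemokine gene end gave 2 genes, 2 ligands, 0 receptors and 2 single genes, and no flank gave 3 ligands. With clusters joined up to 500 kb, 1 clustered gene (Ccl27a) had a peak. The other alternatives, among them windows of 5 kb, summits, scaffold positions and, chosen after seeing the data, leaving out the Ccl19, Ccl21 and Ccl27 copies and using start sites alone, kept each count within 1.5 times its main value, and the chemokine share stayed below that of all genes under each alternative run. Where a count moved, fewer peaks, another window or other clusters made it so by construction.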

Other observations

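A pair of peaks stood alone between the receptor clusters of chromosome 9, between Xcr1 and Ccr1. One of them (chromosome 9, 123924624 to 123925097) reached 11.8-fold, at percentile 97.1 of the list, above all 8 peaks near chemokine genes. The other (123925370 to 123925623, 4.16-fold) had its summit inside Gm51701, a long non-coding RNA gene whose end was 289 bp from the stronger summit. The nearest protein-coding end was that of Ccr1, 37.3 kb and 36.6 kb away. These peaks were chosen after their values were seen.

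Of the other peaks whose nearest protein-coding end belonged to a chemokine gene, 1 lay 12.7 kb from Cxcr5 (chromosome 9, 44498910 to 44499180, 5.63-fold). Another lay 32.5 kb from Xcl1, the lymphotactin gene (chromosome 1, 164899053 to 164899292, 4.25-fold), with its summit inside the long non-coding RNA gene Gm32652. Both were also chosen after their values were seen.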
